A study of Mus musculus with 4 samples.

Results

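The difference between young and aged mouse hearts in their response to ischemia and reperfusion (I/R) was described gene by gene. For each gene, the log2 ratio of I/R over sham in aged left ventricle was subtracted from the same ratio in young left ventricle, so that a positive value marks a higher response in the young. Ratios were taken on CPM, the counts of unique molecular identifiers (UMIs) scaled to the same total in every library and summed over all barcodes of a library, and each ratio was set relative to the median of all ranked genes at that age. Of 32285 genes in the matrices, 14491 had 100 or more UMIs over the 4 libraries and were ranked. Values near that limit were alike, as the 161 ranked genes less than 10 UMIs above it had a median difference of −0.28 and the 183 unranked genes up to 10 UMIs below it one of −0.15.

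All groups were male C57BL/6J wildtype mice, and the tissue was left ventricle. The young were 3 to 5 months of age and the aged 24 to 26 months, and I/R meant 45 min of ischemia with 24 h of reperfusion. The study describes the other group of each age as sham operated, whereas the sample labels call that tissue healthy. The labels also give nuclear RNA as the molecule where the study gives cells. Each of the 4 groups is 1 droplet library, and the number of mice behind it is not given in the sources used here. Where 4 values stand together, the young pair comes before the aged pair and sham before I/R in each pair.

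Ischemia stops oxidative metabolism in the ventricle, and reperfusion brings oxygen back together with oxidative stress, cell death and an influx of inflammatory cells. Surviving cardiomyocytes then take up stress programs, among them metal-binding metallothioneins, natriuretic peptides and other fetal genes, chaperones, and enzymes that switch the fuel of the mitochondria. Aging is known to alter such programs in the heart, and a difference of 2 responses asks where they were unequal between ages.

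The libraries held between 25836175 UMIs in young sham and 66767829 in aged I/R, and their median UMIs per barcode lay between 244 and 675. Their barcodes numbered 92200 and 102883 in the young pair and 100342 and 91124 in the aged pair. Barcodes with 200 or more genes were 28.4% and 55.2% of the young pair and 67.9% and 98.8% of the aged pair. All barcodes were used, and whether each is a cell was not tested. Between 2366 and 2843 barcode sequences were shared by any pair of libraries, at most 2.83% of a library. Malat1, a nuclear noncoding RNA, took 7.34% and 2.22% of the UMIs in the young pair (sham, then I/R) and 2.88% and 4.33% in the aged pair. A larger share fell to Gm42418, with 11.5% and 19.4% in the young pair and 14.0% and 13.8% in the aged pair. With 1 library a group there was no replicate, no test was possible, and a difference between libraries cannot be told apart from one between animals or preparations. The 95% intervals given here come from exact Poisson or conditional limits and cover counting error only. In sums over all barcodes, fewer cells of a type and less RNA per cell cannot be told apart.

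Responses were wider in the young, with an SD over genes of 0.88 against 0.54 in the aged on the log2 scale. The difference of responses had a median of −0.005 over all ranked genes, with quartiles at −0.64 and 0.61 and with 5th and 95th percentiles at −1.72 and 1.44. It was +1 or more, a response at least 2-fold higher in the young, in 1899 genes (13.1%), and −1 or less in 2246 genes (15.5%). Positive values thus made up 45.8% of the genes past 1, but 9.75% without the centring, 28.3% with centring on abundant genes and 28.5% with 10 CPM added to each value. Without centring every difference is lower by 0.58, because the median ratio was −0.50 in the young and 0.09 in the aged, and a value between 0 and 0.58 then turns negative. Among the 3116 genes with 50 CPM or more in at least 1 library, 639 (20.5%) were at +1 or more and 311 (9.98%) at −1 or less. Of the 1449 ranked genes with the most UMIs, 25.1% were at +1 or more and 8.21% at −1 or less. The counts of gene lists below stand beside these shares.

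Among genes past 1, which the same ratios chose, the most frequent pattern was a ratio that had moved in the young and little in the aged. Of the 1899 at the positive end, 904 (47.6%, against 15.7% of all ranked genes) had a young ratio of 0.5 or more and an aged ratio within 0.5 of the median. By that measure 597 (31.4%, against 4.12%) went up in the young and down in the aged. At the negative end, 1175 of 2246 (52.3%, against 16.7%) were lower in young I/R with an aged ratio near the median. Another 779 (34.7%, against 5.38%) were lower in the young and higher in the aged. The same numbers read across age give a median aged over young ratio of 0.58 in sham and −0.79 in I/R for the positive end, and of −0.69 and 0.82 for the negative end. Of the 20 lowest abundant genes, 17 had their highest level in young sham and 3 in aged I/R, and 20 had their lowest in young I/R, which is a description because the same 4 values chose them. Over all ranked genes 5976 of 14491 were highest in young sham and 9189 lowest in young I/R.

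**Figure D1:**
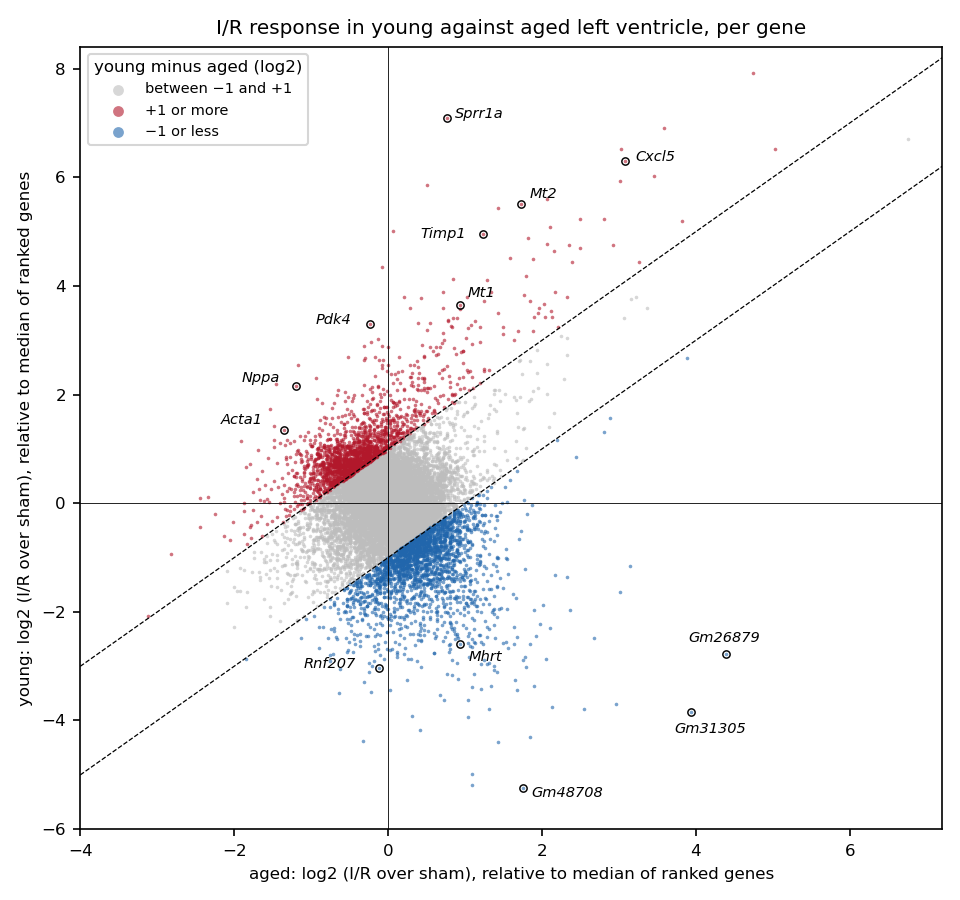
Each point is 1 of 14491 genes, with the aged log2 ratio of I/R over sham on the x axis and the young one on the y axis, each relative to the median of ranked genes. The dashed lines mark a difference of +1 and −1, Mt2, Timp1, Pdk4 and Nppa lie above the upper line, and the antisense RNAs Gm31305 and Gm26879 lie farthest below the lower line on the right.

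Metallothioneins led the abundant genes of the positive end. They are small cysteine-rich proteins that bind zinc and copper and scavenge oxidants. Mt2 (chromosome 8, 94172664 to 94173568 in GRCm38) was at 23 CPM in young sham and 742 CPM in young I/R, and at 27.7 CPM in aged sham and 97.5 CPM in aged I/R. Both sham libraries were low, both I/R libraries were higher, and young I/R stood far above aged I/R. Relative ratios were 5.51 in the young and 1.73 in the aged, a difference of 3.78 (95% interval 3.63 to 3.93) or 13.7-fold. Mt1, its neighbour on chromosome 8 (94179082 to 94180327), went from 235 to 2090 CPM in the young and from 227 to 458 CPM in the aged, a difference of 2.72 (2.67 to 2.77). The UMIs of Mt2 in young I/R were spread over 25183 of the 102883 barcodes of that library, with at most 4 in a barcode.

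The windows of 250 bases before the RefSeq starts of Mt2 and Nppa, abundant genes of the positive end, are shown. That of Mt2 is chr8:94172368-94172617 (GRCm38.p6, plus strand) and that of Nppa chr4:148000472-148000721 (plus strand). Capitals in the Mt2 window mark TGCACNC or TGCGCNC, the core to which the metal-responsive factor MTF-1 binds, on either strand, and capitals in the Nppa window mark TATAAA.
Mt2: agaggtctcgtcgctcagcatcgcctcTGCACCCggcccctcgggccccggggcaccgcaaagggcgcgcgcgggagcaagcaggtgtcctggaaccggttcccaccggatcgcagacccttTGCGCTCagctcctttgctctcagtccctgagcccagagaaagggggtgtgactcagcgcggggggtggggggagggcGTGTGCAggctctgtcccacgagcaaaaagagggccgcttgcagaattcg
Nppa: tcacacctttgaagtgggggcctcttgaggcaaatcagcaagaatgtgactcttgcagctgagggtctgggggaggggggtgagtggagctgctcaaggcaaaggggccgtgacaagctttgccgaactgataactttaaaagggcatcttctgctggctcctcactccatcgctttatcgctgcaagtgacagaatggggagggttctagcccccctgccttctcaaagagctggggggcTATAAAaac
The Mt2 window held 3 such cores, 223, 128 and 50 bases before the RefSeq start. That window ended upstream of the annotated gene start of 94172664. The Mt1 window used (chr8:94178839-94179088) held 1, but it ended past the annotated gene start of 94179082. These counts hold for the RefSeq starts used and do not compare the whole promoters of the genes. Among the 14071 windows that RefSeq gives for ranked genes, 29.1% held at least 1 core and 1.95% held 3 or more, against 28.2% and 2.55% of the windows of genes at +1 or more. TATAAA stood 9 bases before the start in the Nppa window and was found in 7.04% of all windows and in 8.73% of those at the positive end. The window of Nppb, its neighbour (chr4:147985650-147985899), also ended past the annotated gene start, which is 147985788. It held 1 TATAAA and 1 CATTCC, both past that annotated start. CATTCC, the MCAT element of muscle genes, was in 11% of all windows and 12.3% of those at the positive end. TGANTCA, the AP-1 site, was in 4.68% of all windows, 6.81% of those at the positive end and 4.43% at the negative end. Both strands were searched, sites of 2 motifs may overlap, and a match is a description of letters only.

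Natriuretic peptides and other fetal genes of the ventricle were next. Nppa (chromosome 4, 148000722 to 148002079), which encodes atrial natriuretic peptide, was at 335 CPM in young sham and 1055 CPM in young I/R. In the aged it was at 821 CPM in sham and 379 CPM in I/R, so that the order of sham and I/R was opposite at the 2 ages. The difference was 3.36 (3.31 to 3.40). Nppb, encoding brain natriuretic peptide, went from 49.3 to 205 CPM in the young and from 124 to 132 CPM in the aged, a difference of 2.55 (2.45 to 2.65) that came from the young ratio alone, since the aged ratio was 0.00. Acta1, the skeletal α-actin that the fetal heart uses, was at 241 and 432 CPM in young sham and I/R and at 206 and 85.2 CPM in the aged pair, a difference of 2.69 (2.63 to 2.76). Myh7, the slow β-myosin heavy chain, was low in both young libraries (72.3 and 93.9 CPM) and high in aged sham (1174 CPM), with 594 CPM in aged I/R and a difference of 1.94. Nppa, Nppb and Myh7 were already higher in aged sham than in young sham, and Acta1 was not.

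Of 16 ranked genes of a hypertrophy and stretch list, 11 were at +1 or more and 0 at −1 or less, with a median of 1.76 (young 1.83, aged 0.29). Ankrd1, a stretch-sensitive cofactor in the sarcomere, was at 1059 and 3042 CPM in the young and at 1936 and 3645 CPM in the aged, higher in I/R at both ages, with a difference of 1.19. Xirp2, an actin-binding repeat protein, behaved likewise at 0.65, from ratios of 1.48 and 0.83. Rcan1, an inhibitor of calcineurin, was at 34.9 and 161 CPM in young sham and I/R and at 70.4 and 66.5 CPM in the aged, a difference of 2.87. Of 9 genes of the natriuretic system 8 were ranked and 2 were at +1 or more, Nppa and Nppb, and the median was 0.52, which turns negative without centring. Corin, the protease that activates the Nppa product, had a difference of 0.71 and the clearance receptor Npr3 one of −0.69.

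Atrial markers, a list of 6 genes that includes Nppa, were measured in this left ventricle tissue too. All 5 ranked genes of that list were at +1 or more (median 2.11, young 1.5, aged −0.61). Their summed level with the sixth was 471 and 1311 CPM in the young and 948 and 473 CPM in the aged. Nppa itself made up 335 and 1055 CPM of the young sums and 821 and 379 CPM of the aged sums. Bmp10, the gene not ranked, is the only one of the 6 at 0 in a library, young I/R. Sln, a peptide inhibitor of the calcium pump, was at 21.3, 45.2, 18.9 and 11.2 CPM in the same order of libraries, a difference of 2.42 (2.22 to 2.62), and the atrial myosin light chains Myl7 and Myl4 had differences of 2.11 and 1.58. The part of atrial tissue in the values of Nppa was not tested.

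Pdk4 (chromosome 6, 5483351 to 5496309), which encodes the kinase that switches off pyruvate dehydrogenase and spares glucose in favour of fat, followed Mt2 and Timp1 among abundant genes. It was at 76.3 CPM in young sham and 533 CPM in young I/R, and at 39.1 CPM in aged sham and 35.2 CPM in aged I/R. Young I/R was thus far above the 3 other libraries, and aged I/R was no higher than aged sham. The relative ratios were 3.30 and −0.24, a difference of 3.54 (3.42 to 3.65) or 11.6-fold. Angptl4, a secreted inhibitor of lipoprotein lipase, had the same shape at a lower level, with 11 and 61.4 CPM in the young and 5.59 and 5.09 CPM in the aged, a difference of 3.19 (2.89 to 3.5).

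Both are targets of the fatty acid receptor PPARα. In a list of 22 such targets 12 were at +1 or more and 0 at −1 or less, with a median of 1.09 (young 0.91, aged −0.18). The fatty acid binding protein gene Fabp3 was at 2263, 3016, 3151 and 1503 CPM (young sham and I/R, then aged sham and I/R), a difference of 2.07 to which both ages added. Cd36, the fatty acid transporter, had a difference of 1.54, and Lpl, lipoprotein lipase, one of 1.08. The carnitine palmitoyltransferase gene Cpt1a was at 0.00 and Vldlr at 0.05. Ppara itself, the receptor, was on the other side, with 42.8 and 17.3 CPM in the young and 19.4 and 32.0 CPM in the aged, a difference of −1.44.

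Other genes around pyruvate were less far from the middle. Of 13 genes that control pyruvate dehydrogenase or carry pyruvate, Pdk4 not among them, 1 was at +1 or more, Pdk2 at 1.17, and the median was 0.60. The phosphatases that oppose the kinases differed between themselves, with Pdp1 at 0.87 and Pdp2 at −0.46. Fatty acid oxidation had 6 of 22 genes at +1 or more (median 0.73), led by the short-chain dehydrogenase Acads at 1.90. Over all ranked genes the share was 13.1%, and 25.1% in the 1449 genes with the most UMIs, which the count of fatty acid oxidation is near. The citric acid cycle had 1 of 16 (median 0.57, which turns negative without centring), Idh2 at 1.05. In glycolysis 9 of 22 were at +1 or more, among them Pgk1 and Pgam2 at 1.42 each, and 2 were at −1 or less, Hk2 at −1.63 and Pfkfb2 at −2.30, against a list median of 0.86. Hexokinase 2 was at 354 and 159 CPM in the young and at 141 and 293 CPM in the aged. Pfkfb2, which makes the activator of phosphofructokinase in the heart, was at 73.3 and 15.2 CPM in the young and 40.7 and 62.6 CPM in the aged, so both transcripts were lower in young I/R and higher in aged I/R than in their shams. The muscle phosphofructokinase Pfkm was at 1.12 and hexokinase 1 (Hk1) at 0.75, and 19 of the 22 genes were above 0.

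Secreted factors of wound repair followed. Timp1, an inhibitor of matrix metalloproteinases, was at 3.41 CPM in young sham and 75.3 CPM in young I/R, and at 18.5 and 45.9 CPM in the aged pair. Young sham held the lowest and young I/R the highest level, and the difference was 3.73 (3.41 to 4.08). Ccn2, connective tissue growth factor, was at 20.8 and 140 CPM in the young and 60.0 and 113 CPM in the aged, a difference of 2.41 (2.27 to 2.56). Hbegf, a ligand of the EGF receptor family, had 18.9 and 118 CPM against 17.7 and 30.7 CPM, a difference of 2.43. Fgl2, a fibrinogen-like protein whose membrane form has prothrombinase activity, reached 116 CPM in young I/R and 43.7 CPM in aged I/R, a difference of 2.68.

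The matricellular and repair list had 13 of 25 genes at +1 or more and 0 at −1 or less (median 1.05), with Spp1, osteopontin, at 2.90, Thbs1, thrombospondin 1, at 2.58 and the collagen crosslinker Lox at 2.49. Collagens themselves lay at the middle, with 2 of 20 at +1 or more, 1 at −1 or less and a median of 0.00. Col3a1 had a difference of −0.26, whereas Col4a1 and Col4a2 of the basement membrane had 0.75 and 0.63. Genes of the TGFβ pathway had 4 of 24 at +1 or more and 1 at −1 or less, and their median of 0.48 turns negative without centring. Inhba, a subunit of activin, was at 1.55 and Tgfb2 at 1.05, while the inhibitory Smad7 was at −1.35, with 60.4 and 34.6 CPM in the young and 36.3 and 79.6 CPM in the aged.

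**Figure D2:**
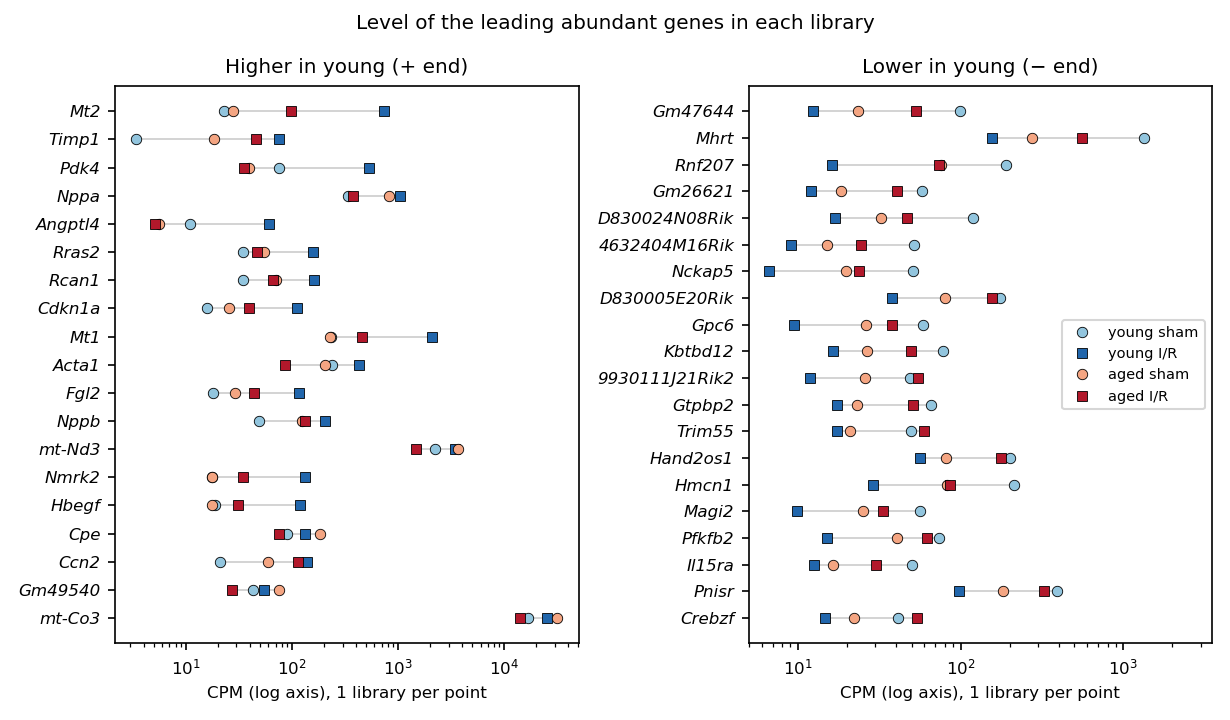
CPM on a log axis in each of the 4 libraries for 19 of the 20 highest (left) and the 20 lowest (right) differences among genes with 50 CPM or more in 1 library, with circles for sham, squares for I/R, blue for young and red or orange for aged. On the right, young I/R holds the lowest point in 20 of 20 genes and young sham the highest in 17.

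Growth arrest, signalling and cytoskeletal genes also stood among the 20 highest or in lists with a high share. Cdkn1a, the cell cycle inhibitor p21, was at 15.9 and 112 CPM in the young and at 25.3 and 39.3 CPM in the aged, a difference of 2.76 (2.58 to 2.94). The list of p53 targets and growth arrest genes had 9 of 16 at +1 or more (median 1.14), with Gdf15, a secreted stress cytokine, at 2.87 and Mdm2, the ubiquitin ligase of p53, at 0.06. Rras2, a small GTPase, was at 34.8, 158, 54.6 and 47.1 CPM (young pair, then aged pair), a difference of 2.98. Cpe, a peptide-processing carboxypeptidase, was at 89.8 and 134 CPM in the young and 182 and 76.2 CPM in the aged, a difference of 2.42. Immediate early genes had 17 of 25 at +1 or more and 0 at −1 or less (median 1.30), with the orphan receptor Nr4a3 at 3.32 and the AP-1 subunits Fosl1 at 2.74 and Fosb at 2.42. Jun was the lowest of that list at −0.98, with 67.4 and 37.7 CPM in the young and 40.8 and 67.4 CPM in the aged. Cytoskeletal genes had 15 of 22 at +1 or more (median 1.18), with the tubulin genes Tubb6 at 2.26 and Tuba1b at 1.92.

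Targets of the glucocorticoid receptor had 13 of 20 at +1 or more and 0 at −1 or less (median 1.33, young 1.91, aged 0.64), a list that shares Mt1, Mt2, Angptl4 and Cdkn1a with the groups above. Zbtb16, a zinc finger factor in this list, was at −0.29, with a higher level in I/R at both ages, at 44.7 and 83.7 CPM in the young and 26.9 and 92 CPM in the aged. Clock genes had 2 of 19 at +1 or more, 2 at −1 or less and a median of −0.14. Per1 was at 1.12, and Per3, with 60.8 and 9.81 CPM in the young and 33.5 and 35.4 CPM in the aged, was at −2.13.

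Chaperones and antioxidant genes were mostly higher in the young response. Hspb1, a small heat shock protein, was at 148 CPM in young sham and 682 CPM in young I/R, and at 126 and 183 CPM in the aged pair, a difference of 2.25 (2.18 to 2.31). Cryab, the αB-crystallin of the Z-disc, reached 2445 CPM in young I/R and lay between 1170 and 1376 CPM in the 3 other libraries, a difference of 1.71. The list of heat shock proteins and chaperones had 10 of 20 at +1 or more and 0 at −1 or less (median 1.02), with Hsp90ab1 at −0.27. Hmox1, heme oxygenase 1, was at 2.28, 28.2, 2.76 and 7.13 CPM (young pair, then aged pair), a difference of 2.83 (2.34 to 3.34). The NRF2 and antioxidant list had 13 of 21 at +1 or more (median 1.07), among them Gpx3 at 2.0, catalase (Cat) at 1.82 and Gpx4, the lipid peroxide reductase, at 1.57. Iron handling and ferroptosis genes had 5 of 16 at +1 or more and 1 at −1 or less (median 0.78), with the ferritin heavy chain Fth1 at 1.07 and Hamp, hepcidin, at 2.20.

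The unfolded protein and ATF4 list had 11 of 22 at +1 or more and 1 at −1 or less (median 0.96). Its members split: Herpud1, an endoplasmic reticulum stress gene, was at 2.14 and the asparagine synthetase gene Asns at 2.25, while the luminal chaperones Hspa5, Calr and Hsp90b1 were at 0.70, 0.34 and 0.33 and Pdia4 at −1.22. Nmrk2, a nicotinamide riboside kinase of muscle that makes NAD, was at 17.7 and 133 CPM in the young and 17.5 and 34.7 CPM in the aged, a difference of 2.50 (2.32 to 2.69). The NAD and sirtuin list, of which Nmrk2 is a member, had 2 of 20 at +1 or more, 4 at −1 or less and a median of −0.50, and the other gene at +1 or more was Bst1 at 1.35. Nnt, the mitochondrial transhydrogenase, was its lowest at −2.29, with 48.8, 8.09, 25.3 and 30.7 CPM (young pair, then aged pair). Nnt is known to carry a deletion in C57BL/6J mice, the strain used here.

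Injury and inflammatory genes filled much of the extreme positive end at low counts. The 20 highest differences, from 3.25 to 6.34, were all of protein-coding genes, and 7 of them had fewer than 4 UMIs in a library. Sprr1a, a cornified envelope protein that injured cardiomyocytes and neurons make, had 1, 223, 73 and 213 UMIs (young pair, then aged pair), or 0.0387, 5.62, 1.77 and 3.19 CPM. Its difference of 6.34 (4.35 to 12.24) rested on that lone UMI. Ereg, the EGF receptor ligand epiregulin, had 1, 94, 15 and 37 UMIs in the same order and a difference of 5.36 (3.08 to 11.32). Il1rn, the antagonist of the interleukin-1 receptor, had 3, 165, 20 and 94 UMIs and a difference of 4.01 (2.38 to 6.62), and Il1r2, the decoy receptor, 2, 327, 14 and 297 UMIs and 3.33 (1.46 to 6.79). All 4 were higher in I/R at both ages. Young sham was the lowest library for 18 of the 20 genes, against 1994 of 14491 over all ranked genes. A low value in young sham raises the difference that chose these genes, so this is a description. Better counted were Agt, angiotensinogen, with 62, 932, 118 and 273 UMIs and a difference of 3.35 (2.85 to 3.86), and Chil3, a chitinase-like protein of myeloid cells, with 5, 549, 20 and 287 UMIs and 3.49 (2.11 to 5.37). The other genes of this end were AA467197 at 4.96, Serpinb1c at 4.43 (2.89 to 7.01), Mmp12 at 3.71, Smok2a at 3.66, Kcnk1 at 3.58 (1.46 to 9.51), Mmp8 at 3.54 (1.20 to 9.51), Tmem252 at 3.29, Begain at 3.28 and Vmn1r224 at 3.25, of which Serpinb1c, Kcnk1 and Mmp8 had fewer than 4 UMIs in young sham.

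Among wider inflammatory lists, chemokines and interleukins had 11 of 22 genes at +1 or more and 0 at −1 or less (median 1.03, young 1.66, aged 0.65). Cxcl5, a neutrophil attractant, was at 0.503 and 29.4 CPM in the young and 1.55 and 14.0 CPM in the aged, a difference of 3.23 (2.38 to 4.26). The monocyte attractants Ccl7 and Ccl2 had 2.19 and 2.08. Cxcl12, a homing factor made by stromal cells, was lowest at −0.66, with 117 and 87.2 CPM against 124 and 218 CPM. Acute phase genes and metallothioneins together had 10 of 17 at +1 or more (median 1.29, young 2.79, aged 0.93), with the long pentraxin Ptx3 at 2.96 (1.56 to 4.60), haptoglobin (Hp) at 1.84 and complement C3 at −0.83. S100, annexin and other injury genes had 16 of 20 at +1 or more and 0 at −1 or less (median 1.52, lowest 0.46). Galectin-3 (Lgals3) was at 4.22 CPM in young sham and between 18.3 and 18.8 CPM in the 3 other libraries, a difference of 2.77.

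Neutrophil markers had median ratios above 0 at both ages, and the list shares Il1r2 and Mmp8 with the genes of the extreme positive end. Of 10 markers 7 were at +1 or more and 1 at −1 or less, with a median of 1.52 from median ratios of 3.62 in the young and 2.0 in the aged. Their summed level was 19.2 and 216 CPM in the young and 30.2 and 183 CPM in the aged, with 0 markers at 0 in any library. S100a8 had 34.5 CPM in young I/R and 26.7 in aged I/R, Lcn2 99.8 and 72.6, and the chemokine receptor Cxcr2 3.91 and 6.60, so that Cxcr2 had a difference of −1.21 (−2.27 to −0.20). The part of neutrophil number in the inflammatory values was not tested. Interferon-induced genes were lower in I/R at both ages, with median ratios of −0.63 in the young and −0.74 in the aged. Their median difference was −0.00, with 1 of 19 at +1 or more (Bst2, 1.20) and 1 at −1 or less (Xaf1, −1.56). Genes of MHC and antigen presentation likewise had median ratios below 0 at both ages, −0.26 in the young and −0.65 in the aged. They had 2 of 16 at +1 or more, 3 at −1 or less and a median difference of 0.51, which turns negative without centring. B2m was at 88.9 and 92.3 CPM in the young and 267 and 143 CPM in the aged, a difference of 1.53.

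Several groups of housekeeping genes had high shares at the positive end. Cytosolic ribosomal proteins had 57 of 76 at +1 or more and 0 at −1 or less, with a median of 1.23 from ratios of 0.90 in the young and −0.32 in the aged. Rplp1 was at 590, 900, 1023 and 556 CPM (young pair, then aged pair), so that young I/R was above its sham and aged I/R below, a difference of 2.07. Rpl6 was lowest at −0.01. The list's summed level was 21580 and 29265 CPM in the young and 31830 and 26484 CPM in the aged. Without centring the list stayed above 0, although every one of these values is then lower by 0.58.

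Respiratory chain genes also lay above the middle. The 45 nuclear genes of oxidative phosphorylation had 27 at +1 or more and 0 at −1 or less (median 1.05, young 0.69, aged −0.44), and all 45 were above 0. Ndufa4 was at 929, 1178, 1173 and 661 CPM (young pair, then aged pair), a difference of 1.75, and Cox4i1 at 2206, 2856, 3284 and 2153 CPM, a difference of 1.56. The 13 genes encoded in mitochondrial DNA had 8 at +1 or more and 0 at −1 or less (median 1.36), and their sum was 99990 and 140511 CPM in the young and 155637 and 99835 CPM in the aged. They were not alike among themselves: mt-Nd3 (difference 2.50), mt-Co3 (2.37), mt-Co2 (2.15) and mt-Co1 (2.11) were far from mt-Nd2 (0.04) and mt-Atp8 (0.00), although all come from shared precursor transcripts. mt-Co3 was at 16808 and 25646 CPM in the young and 31884 and 14052 CPM in the aged, and mt-Nd2 at 7385 and 6415 CPM against 6852 and 8670 CPM.

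The groups given next had medians from 0.71 to 1.12. Lysosomal genes had 12 of 20 at +1 or more (median 1.12), with the tetraspanin Cd63 at 2.03 and cathepsin B (Ctsb) at 1.67. Creatine kinase and ATP transfer genes had 5 of 10 (median 0.89), with muscle creatine kinase (Ckm) at 1.04 and the ADP/ATP carrier Slc25a4 at −0.06. Translation factors had 6 of 20 (median 0.81), with Eif4ebp1 at 1.99 and Eif3a at −0.77. Mitochondrial ribosomal proteins had 8 of 32 and 1 at −1 or less (median 0.80), and proteasome subunits 10 of 31 (median 0.71). Beside these counts, 13.1% of all ranked genes and 25.1% of the 1449 with the most UMIs were at +1 or more.

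**Figure D3:**
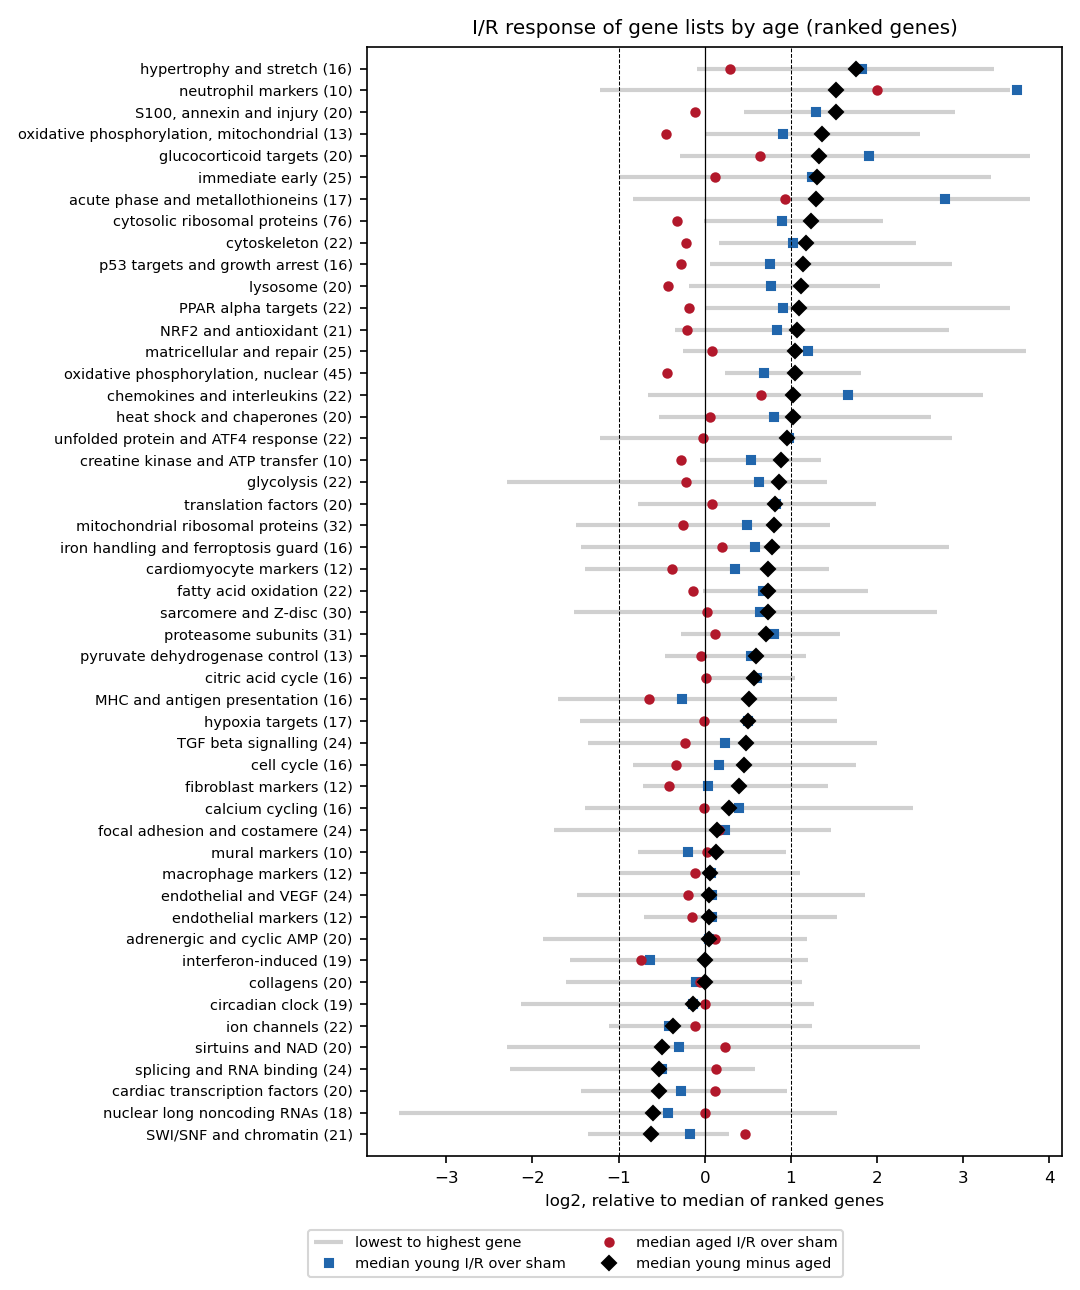
For each gene list with 10 or more ranked genes, blue squares and red circles give the median log2 ratio of I/R over sham in young and aged, black diamonds the median of young minus aged, and grey bars the lowest to highest gene of that difference. Hypertrophy and stretch genes are at the top with 1.76 and SWI/SNF and chromatin genes at the bottom with −0.62.

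Contractile and calcium handling genes lay on both sides. The sarcomere and Z-disc list had 11 of 30 at +1 or more and 3 at −1 or less (median 0.73). The light chains Myl2 (1.21) and Myl3 (1.31), cardiac actin Actc1 (1.22) and the oxygen store Mb (1.44) were positive, whereas Ttn, the giant spring protein of the sarcomere, was at 31744 and 18615 CPM in the young and 18041 and 34439 CPM in the aged, a difference of −1.12. Nexn, a Z-disc protein, was at −1.52. Ryr2, the calcium release channel, was at 2568, 1494, 1180 and 2688 CPM (young pair, then aged pair), a difference of −1.39, and Atp2a2, the calcium pump, at 5272, 6057, 6938 and 4897 CPM, a difference of 1.29. Calcium cycling genes had 3 of 16 at +1 or more and 2 at −1 or less, and their median of 0.28 turns negative without centring. Cardiomyocyte markers, which include several of these genes, had 5 of 12 at +1 or more and 2 at −1 or less (median 0.73), with a summed level of 95909 and 82385 CPM in the young and 88061 and 104876 CPM in the aged and none at 0.

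The negative end was made of other kinds of transcript. Of its 20 lowest genes, from −7.79 to −4.66, 12 are annotated as antisense RNAs, 2 as intergenic long noncoding RNAs, 1 as a processed transcript and 5 as protein-coding, and all 20 were lower in young I/R and higher in aged I/R than in their shams. A gene on the other strand overlapped 18 of the 20, against 45.6% of all ranked genes and 57.3% of those in 5 noncoding classes. Antisense RNAs are annotated by such an overlap, so much of this count follows from their class. The strand and intron settings of the authors' counting are not given in the sources used here. How reads of overlapping genes, on the same or the other strand, were assigned was therefore not checked. Gm31305, opposite the phosphodiesterase-anchoring gene Pde4dip, had 59 and 4 UMIs in the young pair and 5 and 144 in the aged pair. Young sham and aged I/R were thus the high libraries, and the difference was −7.79 (−10.37 to −5.95), against −0.76 for Pde4dip.

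AA672651, opposite the cardiac myosin light chain kinase gene Mylk3 on chromosome 8 (85339343 to 85340272), was the best counted antisense RNA of this end, with 285, 8, 48 and 176 UMIs and a difference of −6.28 (−7.68 to −5.22). Mylk3 itself had −0.84. Gm26879, opposite Traf5 and Rcor3, had 47, 7, 5 and 197 UMIs and −7.17 (−9.39 to −5.52). Gm29480 had −6.66 opposite the glypican gene Gpc1, whose own difference was positive at 1.41. 4930506C21Rik, opposite the mitochondrial pyruvate carrier gene Mpc1, had 458, 32, 64 and 227 UMIs and −4.98 (−5.71 to −4.33). Each of these was higher in young sham than in aged sham and lower in young I/R than in aged I/R, and Gm26879 alone was higher in aged I/R than in young sham.

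The coding genes of this end overlapped others too. Lrrtm2 (−5.89) lies within Ctnna1, Lrrtm3 (−4.91) within Ctnna3 and Lrrc4 (−5.16) opposite Snd1, and all 3 encode leucine-rich repeat proteins of the neuronal synapse. Lrrtm2 had 118, 9, 20 and 153 UMIs in the usual order of libraries. 1700034I23Rik (−4.91) lies opposite Abhd18 and Atcay (−4.70) opposite Atcayos. The remaining 10 were Gm48708 at −7.00 (−12.98 to −4.69), Gm16185 at −6.32, 4933424G05Rik at −6.14 (−8.82 to −4.43), Gm7480 at −6.07 (−12.03 to −3.82), 1500035N22Rik at −5.82, Gm17477 at −5.28, Gm15856 at −5.11, Gm28370 at −5.10 (−7.81 to −3.35), Gm15169 at −4.82 and Gm26981 at −4.66, of which Gm48708, 4933424G05Rik, Gm7480 and Gm28370 had fewer than 4 UMIs in young I/R.

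Among abundant genes the negative end held noncoding RNAs of cardiac loci beside coding genes. Mhrt (chromosome 14, 54968678 to 54974349), a nuclear RNA antisense to Myh7 known to bind the chromatin remodeler Brg1, was at 1343 and 156 CPM in the young and 273 and 556 CPM in the aged. It was highest in young sham, and the 2 ages ran in opposite directions, a difference of −3.55 (−3.60 to −3.5). Myh7 on the other strand had the opposite sign, at 1.94. Gm47644, within an intron of Cep85l on the same strand and opposite the calcium pump inhibitor Pln, was at 99, 12.4, 23.5 and 53.1 CPM (young pair, then aged pair), a difference of −3.59 (−3.77 to −3.42), while Cep85l had −0.63 and Pln 0.16. D830005E20Rik opposite triadin (Trdn) had −2.58 against 0.13 for Trdn, and 4632404M16Rik within calsequestrin 2 (Casq2) had −2.63 against 0.98. Hand2os1, the noncoding neighbour of the transcription factor gene Hand2, was at 202 and 56.2 CPM in the young and 81.4 and 176 CPM in the aged, a difference of −2.38. In the positive direction a lone noncoding RNA stood among the 20, Gm49540 opposite the myoglobin gene Mb, at 2.39.

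The coding genes of that set had a range of functions. Rnf207, a ubiquitin ligase that affects cardiac repolarization, was at 189 and 16.3 CPM in the young and 75.5 and 73.7 CPM in the aged. The aged pair was level and the difference of −2.92 (−3.06 to −2.78) came from the young. Hmcn1, a giant extracellular matrix protein, had the same shape with 212, 28.9, 82.4 and 86.6 CPM and −2.36. Trim55, a sarcomeric ubiquitin ligase, was at 49.3, 17.5, 21.0 and 59.8 CPM, lower in I/R in the young and higher in the aged, a difference of −2.42 (−2.60 to −2.25). Pnisr, a splicing-associated protein, was at 389 and 97.6 CPM in the young and 181 and 325 CPM in the aged, a difference of −2.26 (−2.33 to −2.19). Other coding genes of the set were Nckap5 (−2.60), the glypican Gpc6 (−2.57), Kbtbd12 (−2.56), 9930111J21Rik2 (−2.53), Gtpbp2 (−2.50), the scaffold Magi2 (−2.35), the interleukin-15 receptor chain Il15ra (−2.30) and Crebzf (−2.16), and its other noncoding members were Gm26621 (−2.83) and D830024N08Rik (−2.79).

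Few hand-written lists lay at the negative end, and none had a median of −1 or less. SWI/SNF and chromatin genes had 0 of 21 at +1 or more and 5 at −1 or less (median −0.62, young −0.17, aged 0.47), with the remodeler Chd2 at −1.13, the methyltransferase Kmt2a at −1.06 and Hdac9 lowest at −1.36. Nuclear noncoding RNAs had 3 of 18 at +1 or more and 7 at −1 or less (median −0.60), and Malat1 was at −1.73 where Neat1 of the paraspeckles was at 0.28. The list includes Gm42418, whose share of UMIs was higher in young I/R than in the other libraries. Splicing and RNA binding genes had 0 of 24 at +1 or more and 5 at −1 or less (median −0.53). The RNA helicase Ddx5 was at 1398 and 512 CPM in the young and 644 and 868 CPM in the aged, a difference of −1.30, and Rbm24, a splicing regulator of heart muscle, at 303, 108, 133 and 261 CPM (young pair, then aged pair), a difference of −1.87. Cardiac transcription factors had 0 of 20 at +1 or more and 2 at −1 or less (median −0.53), with Mef2a at −0.92, Mef2c at −0.79 and Nkx2-5 at 0.96. Ion channels had 1 of 22 at +1 or more and 2 at −1 or less (median −0.37), with the pore subunit Cacna1c at −0.68 and Kcna5 at 1.25. At −1 or less were 15.5% of all ranked genes, but 11.7% of protein-coding genes and 55.7% of 5 noncoding classes together. Nuclear noncoding RNAs, with 7 of 18, were above the share of all genes and below that of the noncoding classes. Transcription factors (2 of 20) and ion channels (2 of 22) were near the coding share. Splicing (5 of 24) and chromatin (5 of 21) were above it, by few genes.

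Several lists were near the middle, and the 5 medians given next turn negative without centring. Endothelial and VEGF genes had 4 of 24 at +1 or more and 3 at −1 or less (median 0.05), yet Vegfa was at 512 and 132 CPM in the young and 270 and 246 CPM in the aged, a difference of −1.25, while the junction gene Cldn5 was at 1.84. Hypoxia targets had 3 of 17 and 2 of 17 (median 0.50), from adrenomedullin (Adm) at 1.54 to Ankrd37 at −1.45. Adrenergic and cyclic AMP genes had 2 of 20 at +1 or more and 5 at −1 or less (median 0.05). The receptor genes Adra1b and Adra1a pointed apart, at 1.04 and −1.88, and the phosphodiesterase Pde7a was at −1.55. Focal adhesion and costamere genes had 3 of 24 in each direction (median 0.14), with the fibronectin receptor chain Itga5 at 1.46 and the sarcoglycan Sgcd at −1.75. Cell cycle genes had 5 of 16 at +1 or more (median 0.46), with Ccnd1, cyclin D1, at 1.14 and the proliferation marker Mki67 at −0.83.

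Markers of other cell types gave these values beside the gene groups. Endothelial markers had 2 of 12 at +1 or more (median 0.05), with sums of 2206 and 2438 CPM in the young and 2595 and 2445 CPM in the aged. Fibroblast markers had 3 of 12 (median 0.40), with 1374 and 1087 CPM against 1901 and 1343 CPM. Macrophage markers had 1 of 12 at +1 or more and 1 at −1 or less (median 0.06), with 361 and 259 CPM against 561 and 482 CPM. Mural markers had 0 of 10 past 1 in either direction (median 0.13), with 838 and 613 CPM against 846 and 820 CPM. The 5 erythroid markers had 2 at +1 or more, Hba-a1 and Hba-a2 (median 0.64), with 2567 and 1957 CPM against 1691 and 1025 CPM. The rarer lists were the lymphoid, with 2 of 6 at +1 or more (median 0.30), the Schwann, with 0 of 2 (median −0.33), the mesothelial, with 1 of 3 at −1 or less (median −0.84), and the adipocyte, with no gene ranked. The medians of the endothelial, fibroblast, macrophage, mural and lymphoid lists turn negative without centring. How far cell type makeup enters the ranking was not tested.

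Class and length of the gene moved with the ranking. Antisense RNAs had a median difference of −1.36, with 252 of 421 (59.9%) at −1 or less, and sense intronic RNAs one of −1.44, with 109 of 142 (76.8%). For 5 noncoding classes together the median was −1.21 (young −0.94, aged 0.23) and 698 of 1254 (55.7%) were at −1 or less, which made up 31.1% of all genes at that end. Protein-coding genes had a median of 0.06, with 13.7% at +1 or more and 11.7% at −1 or less. The overlap itself carried a smaller contrast than the class, since noncoding genes that overlap a gene on the other strand had a median of −1.31 and those that overlap none one of −1.07, and coding genes −0.06 and 0.16. Antisense RNAs were below their coding partner in 284 of 360 pairs (78.9%), with medians of −1.47 and −0.14, and sense intronic RNAs below their host in 125 of 138 (90.6%). The pairs are not independent, since several RNAs share a host, as those within Magi3 or Cdk14 do. Noncoding genes had the lower median as a class, which by itself favours this order, so the counts are a description.

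**Figure D4:**
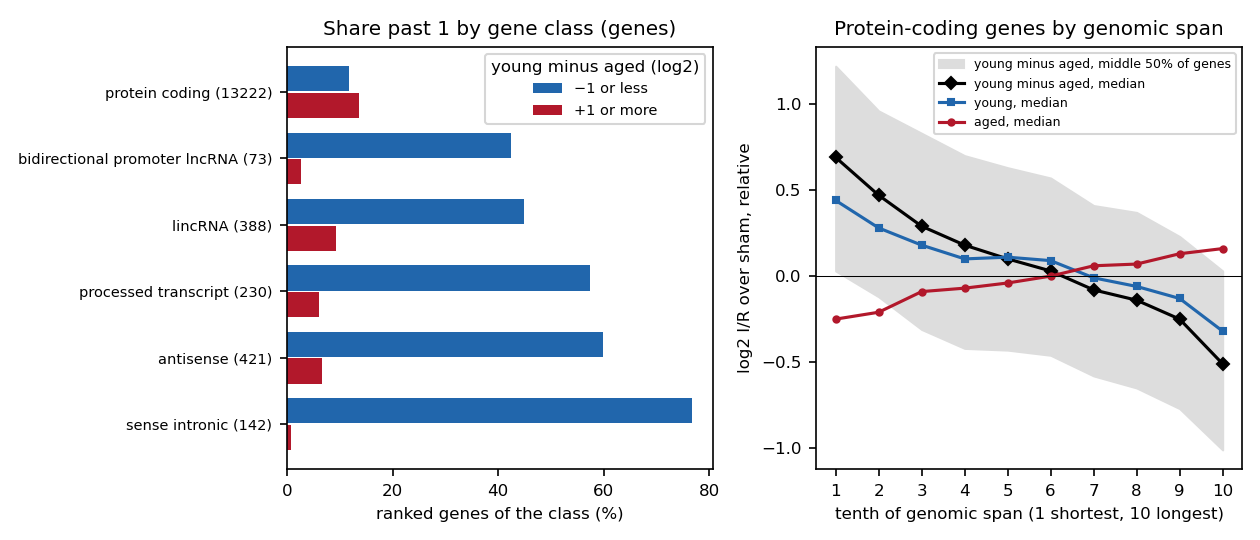
Left, the share of ranked genes of each annotated class at +1 or more (red bars) and −1 or less (blue bars). Right, for 13222 protein-coding genes in 10 equal groups by genomic span, the median ratio in young (blue) and aged (red) and the median and middle 50% of their difference (black and grey), which goes from 0.69 in the shortest group to −0.51 in the longest.

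Among protein-coding genes, the 1 of 10 equal groups with the shortest genomic span (median 3063 bp) had a median difference of 0.69 and 35.1% of its genes at +1 or more, and the longest group (median 211960 bp) −0.51 and 3.33%. At −1 or less were 6.20% and 25.9%. The medians of young and aged ran in opposite directions, from 0.44 to −0.32 and from −0.25 to 0.16. Across genes, which are no independent replicates and share the 4 libraries, Spearman's rho of the difference was −0.35 with span, −0.42 with exonic length and 0.13 with total UMIs. The ribosomal list had a median span of 3328 bp and the nuclear respiratory list 6819 bp, whereas the chromatin list had 115193 bp. Other lists of long genes lay nearer the median of all ranked genes, as calcium cycling had a median span of 141514 bp with a median difference of 0.28, collagens 117122 bp with 0.00 and adrenergic and cyclic AMP genes 109848 bp with 0.05. The Malat1 share, gene class and gene length moved with the ranking, and their part in the differences was not tested.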

How the data were processed

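Left ventricle of young and aged mice after sham or I/R was measured in 4 droplet libraries, 1 per condition, on the 10× Chromium system. The authors used Cell Ranger for alignment and counting, for which their processing notes give version 6.0.2 and build GRCm38 (mm10), and each value as deposited is an unscaled whole count of UMIs. Depth is given in the report. Groups were taken from the labels.

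UMIs of all barcodes in a library were added up per gene, with no doublets called or removed. A gene was ranked with 100 or more UMIs over the 4 libraries, 0.5 UMIs were added per library, and each log2 CPM ratio of I/R over sham was centred on the median of ranked genes before the aged value was subtracted from the young. A gene counted as past the threshold at +1 or −1, and a ratio as moved at 0.5. No test was run, and the 95% intervals (exact Poisson, exact conditional) cover counting error only. Gene class, span and strand overlap came from GENCODE vM21 (14487 of 14491 genes matched) and promoter windows from RefSeq. The text names the 20 genes at each end, the 20 at each end among genes with 50 CPM or more, and members of 57 hand-written lists, except that a few genes are not reported here. Members and lists were chosen with earlier results of these data known. The calculation was tested on simulated data. Cell names of the authors and other assays of the study were not used here.

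The alternatives were no centring, size factors, centring on abundant genes, totals without Gm42418, Malat1 and mitochondrial genes, minima of 20 and 400 UMIs, barcodes with 200 or more genes, barcodes found in 1 library, equal weight per barcode and 10 CPM added. Centring on protein-coding genes was chosen after seeing the data. Python 3.11.15 with numpy 2.4.6, scipy 1.17.1, pandas 2.3.3 and matplotlib 3.10.9 was used.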

Additional observations from a re-analysis of the deposited data

Results flagged for a closer look

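For 39 of the leading genes the 2 ages ran in opposite directions: the I/R library lay above its sham by at least 0.5 on the log2 scale at one age and below it by at least 0.5 at the other, with and without centring and with 4 or more UMIs in every library. The leading genes are those named at either end, among all ranked genes and among those with 50 CPM or more. They were chosen by the size of young minus aged, which favours opposite directions, so the 39 are a description. By centred ratios alone, 597 of all 14491 ranked genes (4.12%) went up in the young and down in the aged. Another 779 (5.38%) went down in the young and up in the aged. With 1 library per condition the difference between ages was not tested.

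At the positive end, higher in young I/R and lower in aged I/R than in the matching sham, were Mmp12 (young minus aged 3.71), Smok2a (3.66), Nppa (3.36), Begain (3.28), Vmn1r224 (3.25), Acta1 (2.69), mt-Nd3 (2.50), Cpe (2.42) and mt-Co3 (2.37). They include a peptide hormone, a fetal actin and respiratory chain subunits encoded in mitochondrial DNA. Smok2a is a sperm motility kinase and Vmn1r224 a vomeronasal receptor, neither known as a gene of heart muscle, with 144 and 100 UMIs in all.

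At the negative end, lower in young I/R and higher in aged I/R, were the low-count genes Gm31305 (−7.79), Gm26879 (−7.17), Gm29480 (−6.66), Gm16185 (−6.32), AA672651 (−6.28), Lrrtm2 (−5.89), 1500035N22Rik (−5.82), Gm17477 (−5.28), Lrrc4 (−5.16), Gm15856 (−5.11), 4930506C21Rik (−4.98), Lrrtm3 (−4.91), 1700034I23Rik (−4.91), Gm15169 (−4.82), Atcay (−4.70) and Gm26981 (−4.66). The abundant genes were Gm47644 (−3.59), Mhrt (−3.55), Gm26621 (−2.83), 4632404M16Rik (−2.63), D830005E20Rik (−2.58), Kbtbd12 (−2.56), 9930111J21Rik2 (−2.53), Gtpbp2 (−2.50), Trim55 (−2.42), Hand2os1 (−2.38), Pfkfb2 (−2.30), Il15ra (−2.30), Pnisr (−2.26) and Crebzf (−2.16).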

How the results depend on the processing

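No paired analysis was possible because each condition has 1 library and the labels give no replicate numbers, and for the same reason no library could be left out. The number of genes at +1 or more was 1899 and became 514 without centring, 1197 with centring on genes of 50 CPM or more and 278 with 10 CPM added. The number at −1 or less was 2246 and became 4759 without centring and 699 with 10 CPM added. Under the other alternatives both counts stayed within 1.5 times. No leading gene that was still ranked, and no list with a median past 1, turned to the other side of 0. With barcodes of 200 or more genes, 1727 of the 1899 and 1971 of the 2246 stayed ranked and past 1. Sizes did change with those barcodes, as for Nmrk2 from 2.50 to 1.90 and Mmp12 from 3.71 to 4.87. Adding 10 CPM weighs low genes down and kept 543 of the 2246 at −1 or less, with a rank correlation of 0.84 with the values of the report. Of 56 list medians, 15 changed sign without centring, 8 with 10 CPM added and 6 with centring on abundant genes. Of the 18 lists with a median of +1 or more, 2 kept it without centring, 2 with 10 CPM added and 9 with centring on abundant genes. Depth limits the lowest genes, since 46 ranked genes had fewer than 4 UMIs in a library.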

Other observations

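Ranked genes were also grouped by the shared stem of their symbols, which gave 98 stems with 15 or more genes. Those named here were chosen after their values were seen, and their counts stand beside 13.1% of all ranked genes at +1 or more and 15.5% at −1 or less. The zinc finger genes (Zfp), many of them repressors of transcription, had 71 of 352 at −1 or less and 9 at +1 or more, with a median difference of −0.48. RNA-binding motif genes (Rbm) had 9 of 33 at −1 or less and 0 at +1 or more (median −0.50), and the phosphodiesterases (Pde) 7 of 22 and 1 (median −0.52). The lysine demethylases (Kdm) had 3 of 18 at −1 or less (16.7%), near the share of all ranked genes. None of them was at +1 or more, and their median was −0.53. The protocadherins (Pcdh), adhesion molecules, had 23 of 40 at −1 or less and 1 at +1 or more (median −1.14), and the Cep centrosomal genes 18 of 37 at −1 or less (median −0.95). Since genes of their clustered loci share exons, the single values of protocadherins are uncertain.

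On the other side were the RNA polymerase subunits (Polr, 7 of 28 at +1 or more, median 0.63), the tetraspanins (Tspan, 7 of 17, median 0.59) and the Atp genes of ion pumps and ATP synthase (24 of 68, median 0.62). These medians, like those of the ribosomal stems Rps (1.20) and Rpl (1.16), are relative to the median of all ranked genes, and without centring each is lower by 0.58.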
